A study of Mus musculus with 10 samples.

Results

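The 10 genes described here are the p53 gene Trp53, its inhibitor Mdm2, and 8 members of the Bcl2 family that set whether a cell survives or dies by the mitochondrial route. They were taken by symbol from an RNA-seq table of 36066 mouse genes, and all 10 symbols were present. The table holds 10 libraries in 5 groups of 2, all of the C57BL6 strain. Female ESCs are embryonic stem cells from fertilized embryos, and pESCs are parthenogenetic stem cells from activated oocytes, which carry maternal chromosomes alone. Per the methods, both came from mice with a β-Actin-GFP transgene and were grown on mouse embryonic fibroblast feeders. ESC-PGCLCs and pESC-PGCLCs are primordial germ cell-like cells made from these cells through epiblast-like cells, with 4 days of BMP4 (500 ng/ml), SCF (100 ng/ml), EGF (50 ng/ml) and LIF (1000 IU), and sorted for SSEA1 and CD61. PGCs are primordial germ cells of female embryos sorted by SSEA1 with or without CD61, and the labels give no embryonic day for them. The study describes PGCs of an earlier and a later embryonic stage, and which of these the 2 PGC libraries hold was not settled, so every PGC value below may be of either. The labels do not say how many lines were used or whether the 2 libraries of a group came from separate cultures or litters, so p-values measure the spread between these libraries, which may be technical.

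p53 is a transcription factor that is kept low in unstressed cells because Mdm2, itself a p53 target, marks it for degradation. Among the genes it switches on are Bax, Bbc3 (Puma) and Pmaip1 (Noxa). Bax and Bak1 are the effectors that open pores in the outer mitochondrial membrane. Bcl2, Bcl2l1 (Bcl-xL) and Mcl1 hold the effectors back, and the BH3-only proteins Bcl2l11 (Bim), Bbc3 and Pmaip1 free them. Migrating PGCs are known to depend on this balance, and loss of Bax lets stray germ cells live on. RNA levels say nothing of the amount or modification of p53 protein, which is regulated mostly after translation.

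The promoters of the members were searched for the p53 half-site consensus, which reads the same on both strands. The windows were the 250 bases before each RefSeq start site (GRCm38.p6), 14 windows in all for 9 of the 10 genes, and Pmaip1 has no window in that table. A half-site was present in 3 windows, those of Trp53, Mdm2 and Bax, and in 7.13% of all 32851 windows. Pairs of half-sites at most 13 bases apart were in 0.0639% of all windows. Each of the 3 member windows held 1 half-site and so no pair. The sites began 75, 186 and 201 bases before the start of Trp53, Mdm2 and Bax, respectively. They are shown along each gene's strand with the half-site in capitals, for Trp53 at chr11:69580274-69580303 (plus strand), Mdm2 at chr10:117710925-117710954 (minus strand) and Bax at chr7:45467080-45467109 (minus strand).
Trp53: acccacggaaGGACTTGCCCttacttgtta
Mdm2: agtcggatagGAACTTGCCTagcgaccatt
Bax: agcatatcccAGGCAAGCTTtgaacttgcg
The windows of Bcl2, Bcl2l1, Mcl1, Bak1, Bcl2l11 and Bbc3 did not hold these letters. Sequence outside these 250 bases, introns included, was not searched. A match describes the sequence and does not show binding.

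The deposited values are TPM, a measure of read number per unit of transcript length that has the same total in each library, so levels of different genes can be set side by side. Depth lay between 6779837 and 18572901 reads on genes, and the ESC-PGCLC libraries were the shallowest. Comparisons used limma on log2(TPM + 1) for 27259 genes, and a gene was called at a Benjamini-Hochberg adjusted p under 0.05 with a difference of at least 2-fold. With 2 libraries against 2, an exact two-sided permutation test cannot go below p = 0.333. Markers went with the labels in part. The summed TPM of 4 later germ cell genes (Dazl, Ddx4, Mael, Sycp3) was 29.1 to 58.9 in stem cells and 2131 to 3854 in PGCLCs and PGCs. Pou5f1 (Oct4), which PGCs are known to keep, was at 0.374 and 0 TPM in ESC-PGCLCs, 2.98 and 2.88 in pESC-PGCLCs and 3.14 and 1.63 in PGCs, against 7.49 to 23.5 in stem cells. Over 5 pluripotent genes including Pou5f1, summed TPM was 182 and 212 in ESC-PGCLCs, 129 and 141 in pESC-PGCLCs and 207 and 194 in PGCs. Stem cell libraries had 598 to 982. For 7 early germ cell genes the sums were 5741 and 5797, 5073 and 4689, and 3309 and 4315 in the same order, against 391 to 909 in stem cells. Other cells' markers also differed between the germ cell groups. Summed TPM of 5 blood genes was 137 and 151 in ESC-PGCLCs, 1097 and 955 in pESC-PGCLCs and 736 and 590 in PGCs, nearly all from haemoglobin genes, and Ptprc (CD45) was at most 0.103. For 5 gonadal somatic genes the sums were 14.0 and 16.8, 28.4 and 24.0, and 54.2 and 48.1, and for 6 fibroblast genes they were 3.61 to 9.46 in all germ cell libraries and at most 0.512 in stem cells. These sums move in part with the differences below, and their part in them was not tested. In bulk RNA, fewer cells of a type and less RNA per cell cannot be told apart.

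In the 9024 genes that reached 1 TPM in all 10 libraries, the median of log2(TPM + 1) ran from 3.23 in pESC replicate 1 to 4.32 in PGC replicate 1. Results are on TPM as deposited, and the effect of centring each library on this median, or of quantile normalization, is given for the members where it ends or adds a call, and for gene lists by their counts. Median centring moved the median difference of all 27259 genes from 0.22 to -0.51 for pESC-PGCLCs against pESCs, and from 0.05 to 0.06 for ESC-PGCLCs against ESCs. It also subtracts a constant from genes near 0.

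Trp53 was highest in stem cells and lowest in ESC-PGCLCs. The gene lies at 69580359 to 69591873 on the plus strand of chromosome 11 (GENCODE M21, GRCm38, as for all genes below). Its level was 88.0 and 61.7 TPM in ESCs, 44.4 and 32.4 in pESCs, 4.31 and 4.80 in ESC-PGCLCs, 10.9 and 14.0 in pESC-PGCLCs and 17.5 and 9.52 in PGCs. Neighbouring groups did not overlap in this order, apart from PGCs and pESC-PGCLCs. ESC-PGCLCs had 16.4-fold less Trp53 RNA than ESCs by mean TPM, a log2 difference of -3.75 (SE 0.30, adjusted p = 3.89e-05). pESC-PGCLCs had 3.09-fold less than pESCs, a log2 difference of -1.55 (SE 0.30, adjusted p = 0.00406). Both calls held in every alternative run, where the differences ranged from -4.07 to -3.50 and from -2.28 to -1.33. The drop was smaller for the parthenogenetic cells by 2.20 on the log2 scale in the test of the difference itself (adjusted p = 0.00896). Trp53 was also called higher in pESC-PGCLCs (log2 difference 1.26, adjusted p = 0.0203) and in PGCs (1.33, adjusted p = 0.0147) than in ESC-PGCLCs. Those 2 calls share the ESC-PGCLC libraries and depended on the settings. The first was lost under both other scalings and on leaving out any of the 4 libraries (adjusted p = 0.0551 to 0.119). The second was lost under both scalings, in a fit of the compared groups alone (adjusted p = 0.115) and without PGC replicate 1 (0.0685) or either ESC-PGCLC library (0.0669 and 0.0528).

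Mdm2, the ubiquitin ligase that removes p53, did not follow Trp53 (chromosome 10, 117688875 to 117710758, minus strand). Its level was 21.2 and 20.3 TPM in ESCs, 11.7 and 14.8 in pESCs, 22.3 and 22.2 in ESC-PGCLCs, 33.1 and 33.6 in pESC-PGCLCs and 38.4 and 39.8 in PGCs. No neighbouring groups overlapped in this order, though ESCs and ESC-PGCLCs differed by only 0.10 on the log2 scale (95% interval -0.23 to 0.42). Mdm2 rose 2.53-fold by mean TPM from pESCs to pESC-PGCLCs (log2 difference 1.28, SE 0.14, adjusted p = 0.000218), and the 2 differentiation effects differed by 1.18 (adjusted p = 0.00457). Under median centring these became 0.55 and 0.44, and under quantile normalization 0.71 and 0.44, all under 2-fold. Against ESC-PGCLCs, Mdm2 was higher in pESC-PGCLCs by 0.56 (adjusted p = 0.0232) and in PGCs by 0.79 (adjusted p = 0.00589), also under 2-fold.

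**Figure D1:**
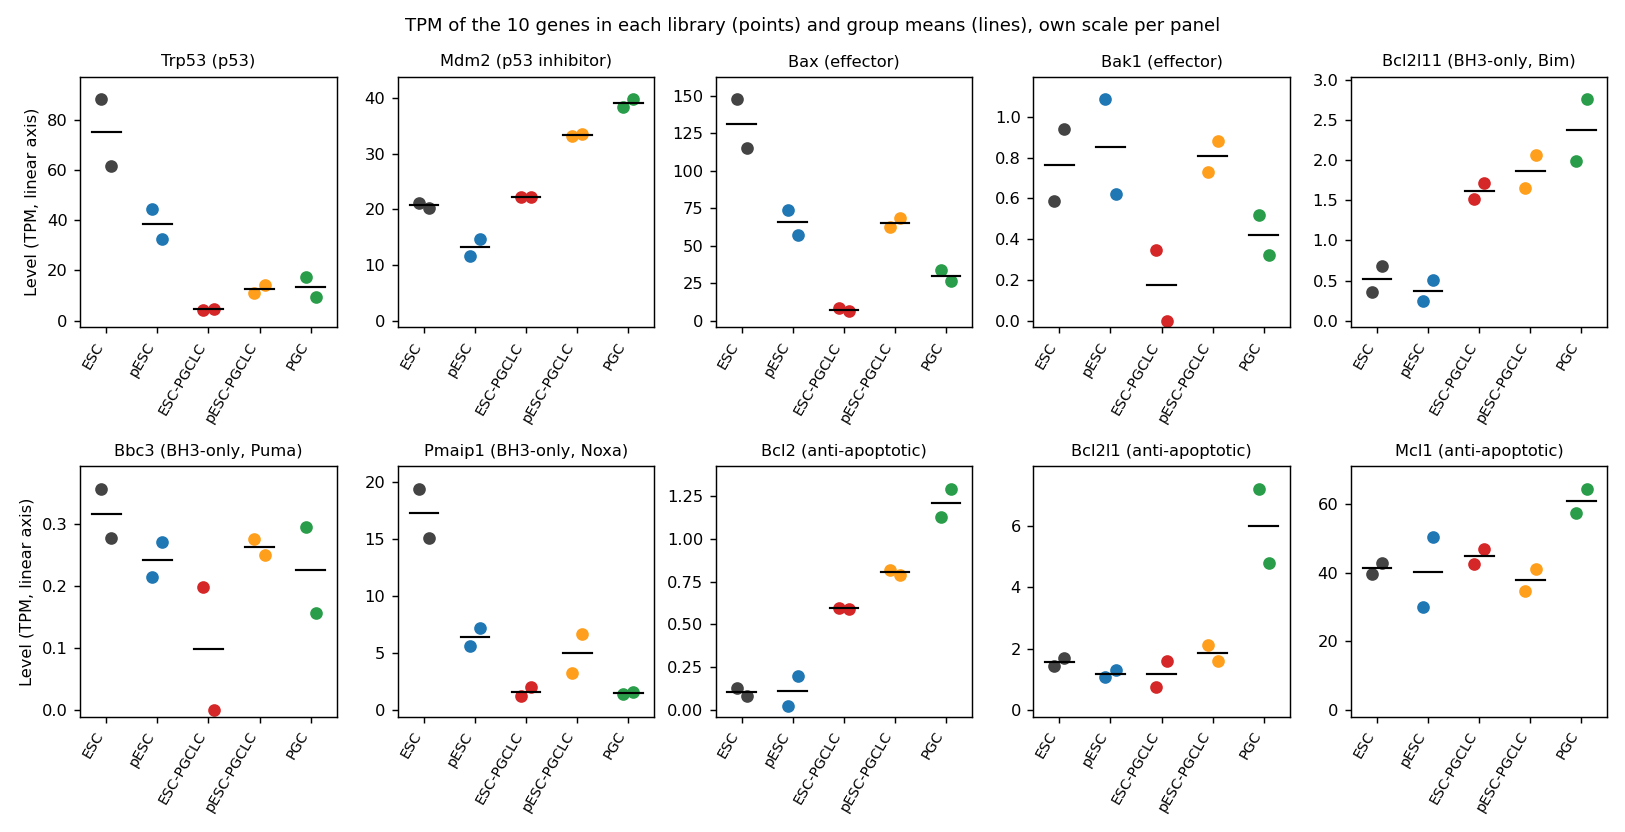
TPM (linear axis, own scale in each panel) of the 10 genes in the 5 groups, with a point for each of 2 libraries and a line at the group mean. Trp53, Bax and Pmaip1 are highest in ESCs and sit at 4.56, 7.32 and 1.62 TPM on average in ESC-PGCLCs, whereas Mdm2, Bcl2, Bcl2l1, Bcl2l11 and Mcl1 are highest in PGCs.

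A ratio within a library does not depend on a constant that multiplies a library, and 2 such ratios, chosen after the values were seen, are given as descriptions. The ratio of Trp53 to Mdm2 TPM was 4.15 and 3.05 in ESCs and 3.81 and 2.20 in pESCs. It was 0.194 and 0.216 in ESC-PGCLCs, 0.328 and 0.417 in pESC-PGCLCs and 0.455 and 0.239 in PGCs. Thus Trp53 exceeded Mdm2 in all 4 stem cell libraries and lay below it in all 6 germ cell libraries. Among the latter, ESC-PGCLCs were lowest without overlap, and pESC-PGCLCs lay between the 2 PGC libraries.

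Of the 10 genes, Bax differed most between ESC-PGCLCs and pESC-PGCLCs (chromosome 7, 45461697 to 45466898, minus strand). Its level was 148 and 115 TPM in ESCs, 73.8 and 57.2 in pESCs, 8.40 and 6.24 in ESC-PGCLCs, 62.2 and 68.4 in pESC-PGCLCs and 33.9 and 26.2 in PGCs. The pESC and pESC-PGCLC libraries overlapped, and every other pair of groups was apart. In reads, the ESC-PGCLC values rest on 63 and 40 reads and those of the other groups on 341 to 2160. ESC-PGCLCs had 17.97-fold less Bax RNA than ESCs (log2 difference -3.99, SE 0.22, adjusted p = 6.76e-06), a call that held in every alternative run. pESC-PGCLCs and pESCs differed by 0.01 (95% interval -0.50 to 0.51). The 2 differentiation effects differed by 4.00 (SE 0.31, adjusted p = 0.000377), and this was 3.26 under median centring and 3.41 under quantile normalization. In those scalings Bax was lower in pESC-PGCLCs than in pESCs by 0.72 (adjusted p = 0.028) and 0.32 (adjusted p = 0.314).

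Between germ cell groups, Bax was 8.92-fold higher by mean TPM in pESC-PGCLCs than in ESC-PGCLCs (log2 difference 3.01, SE 0.22, adjusted p = 0.000157). In PGCs it was 4.11-fold higher than in ESC-PGCLCs (1.90, adjusted p = 0.00161) and 2.17-fold lower than in pESC-PGCLCs (-1.10, adjusted p = 0.0311). These comparisons share libraries. The first call held in every alternative run. The second was lost in a fit of the compared groups alone (adjusted p = 0.0613), and the third there (0.121) and on leaving out any of the 4 libraries (0.0575 to 0.159). The summed haemoglobin and other blood genes given above follow the same order of these 3 groups, and their part in the Bax difference was not tested. Of the exon bases of Bax, 12.2% are shared with the overlapping gene Gm45808.

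Bak1, the other effector, was scarce (chromosome 17, 27019810 to 27029009, minus strand). It was at 0.586 and 0.944 TPM in ESCs, 1.09 and 0.623 in pESCs, 0.349 and 0 in ESC-PGCLCs, 0.732 and 0.883 in pESC-PGCLCs and 0.521 and 0.322 in PGCs. These values rest on 0 to 27 reads a library, and the 0 in ESC-PGCLC replicate 2 allows up to 0.306 TPM by counting error (3 reads). ESC-PGCLCs were lower than ESCs by 0.60 (adjusted p = 0.0463), under 2-fold on the log2(TPM + 1) scale, which shrinks differences of low genes. With a pseudocount of 0.1, or with voom on recovered reads, Bak1 was called lower there (-1.997, adjusted p = 0.0432, and -2.49, adjusted p = 0.0241). Overlap with Ggnbp1 covers 25.5% of its exon bases. No call was made for Bak1 in the other comparisons.

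Pmaip1, a BH3-only gene whose product binds Mcl1, was highest in ESCs, like Trp53, but low in PGCs (chromosome 18, 66458533 to 66465565, plus strand). Its level was 19.4 and 15.1 TPM in ESCs, 5.63 and 7.19 in pESCs, 1.19 and 2.04 in ESC-PGCLCs, 3.24 and 6.71 in pESC-PGCLCs and 1.42 and 1.59 in PGCs. ESCs stood above all other groups, and the ESC-PGCLC and PGC libraries overlapped. ESC-PGCLCs had 10.7-fold less than ESCs (log2 difference -2.81, SE 0.31, adjusted p = 0.000173), in every alternative run. The ESC-PGCLC values rest on only 15 and 23 reads, and those of PGCs on 25 and 39. For pESC-PGCLCs against pESCs the difference was -0.37 (95% interval -1.08 to 0.34, adjusted p = 0.380), and it was called under median centring (-1.10, adjusted p = 0.00881) and quantile normalization (-1.04, adjusted p = 0.0213). The difference between the 2 effects was 2.45 (adjusted p = 0.00591). Pmaip1 was called higher in pESC-PGCLCs than in ESC-PGCLCs (1.15, adjusted p = 0.0309). That call was lost in both scalings, with the compared groups alone (adjusted p = 0.174), and without pESC-PGCLC replicate 2 (0.164), ESC-PGCLC replicate 1 (0.146) or replicate 2 (0.0504). PGCs lay below pESC-PGCLCs by 1.19 (adjusted p = 0.0521), which passed under both scalings, under a filter of 1 TPM and with voom.

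Bcl2l11 was higher in germ cell than in stem cell libraries (chromosome 2, 128126038 to 128162547, plus strand). Bim, its product, binds all the anti-apoptotic members. It was at 0.352 and 0.681 TPM in ESCs, 0.241 and 0.503 in pESCs, 1.52 and 1.71 in ESC-PGCLCs, 1.65 and 2.06 in pESC-PGCLCs and 1.99 and 2.76 in PGCs. All 6 germ cell libraries exceeded all 4 stem cell libraries, and within each kind the groups overlapped, apart from PGCs and ESC-PGCLCs. Bcl2l11 rose from pESCs to pESC-PGCLCs (log2 difference 1.06, SE 0.21, adjusted p = 0.00373), and the difference for ESC-PGCLCs was 0.79 (adjusted p = 0.0139), under 2-fold. The 2 effects differed by 0.27 (95% interval -0.41 to 0.94, adjusted p = 0.577). The first call was lost under median centring (0.33, adjusted p = 0.183) and quantile normalization (0.71), and fell to 0.92 and 0.96 without pESC replicate 1 and pESC-PGCLC replicate 2. On the read scale of voom both were called, at 2.09 and 1.61.

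Bbc3 was at the limit of detection (chromosome 7, 16308393 to 16318205, plus strand). Its level did not exceed 0.358 TPM, and no library held more than 7 reads of it. ESC-PGCLC replicate 2 held none, which allows up to 0.347 TPM. At this depth no difference was detectable in any of the 6 comparisons, with limma adjusted p from 0.103 to 0.911.

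Mcl1 was by far the most abundant anti-apoptotic member (chromosome 3, 95658788 to 95663176, plus strand). It protects many early embryonic cell types. Its level was 39.8 and 43.0 TPM in ESCs, 30.1 and 50.4 in pESCs, 42.7 and 47.1 in ESC-PGCLCs, 34.8 and 41.04 in pESC-PGCLCs and 57.6 and 64.6 in PGCs. Of the summed TPM of Bcl2, Bcl2l1 and Mcl1 it made up 87.3% to 97.1% in each library, with the lowest shares in PGCs (87.3% and 91.4%). PGCs stood above the other groups, and the other 4 groups overlapped in order. No difference was called, and on TPM as deposited the nearest was PGCs against pESC-PGCLCs (0.67, 95% interval 0.14 to 1.21, adjusted p = 0.101). Under median centring Mcl1 differed by -0.77 in pESC-PGCLCs against pESCs (limma adjusted p = 0.00618) and by -0.65 against ESC-PGCLCs (0.0269). The latter was -0.62 under quantile normalization (0.0421). The difference between both effects was -0.90 under median centring (0.0245), and all were under 2-fold. The ratio of Bax to Mcl1 was 3.71 and 2.68 in ESCs, 2.45 and 1.14 in pESCs, 0.197 and 0.132 in ESC-PGCLCs, 1.79 and 1.67 in pESC-PGCLCs and 0.589 and 0.406 in PGCs. Bax RNA thus exceeded Mcl1 RNA in stem cells and pESC-PGCLCs and lay below it in ESC-PGCLCs and PGCs.

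**Figure D2:**
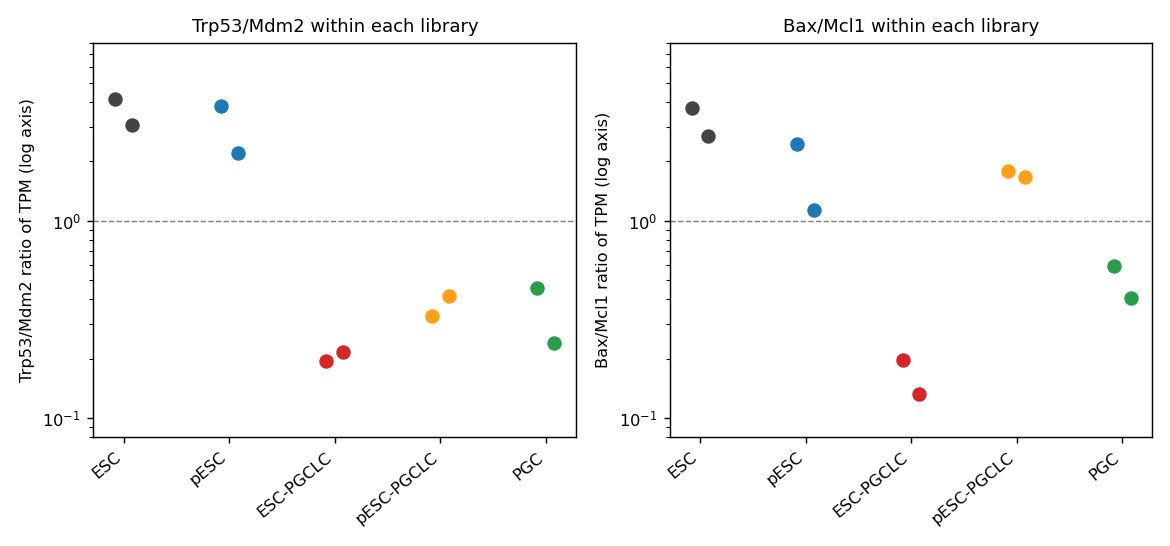
Ratio of Trp53 to Mdm2 TPM (left) and of Bax to Mcl1 TPM (right) in each library, on log axes with a dashed line at 1, a point for each of 2 libraries per group. The first ratio is above 1 in stem cells alone, and the second is also above 1 in pESC-PGCLCs (1.79 and 1.67).

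Bcl2l1, which encodes Bcl-xL and is known to be needed for PGC survival, stood out in PGCs (chromosome 2, 152780668 to 152831728, minus strand). Its level was 1.44 and 1.71 TPM in ESCs, 1.07 and 1.31 in pESCs, 0.733 and 1.61 in ESC-PGCLCs, 2.13 and 1.60 in pESC-PGCLCs and 7.21 and 4.78 in PGCs. The other 8 libraries reached at most 2.13, and the PGC libraries shared no range with them. PGCs had 5.12-fold more than ESC-PGCLCs (log2 difference 1.70, SE 0.26, adjusted p = 0.00367) and 3.22-fold more than pESC-PGCLCs (1.27, adjusted p = 0.0333). The first call was lost in a fit of the compared groups alone (adjusted p = 0.0867). The second was lost there (0.139), with a pseudocount of 0.1 (0.0611), under quantile normalization (0.93), and without PGC replicate 1 (0.128) or either pESC-PGCLC library (0.116 and 0.168). Differentiation gave no call from either origin (-0.27, 95% interval -0.88 to 0.33, for ESCs and 0.38, 95% interval -0.22 to 0.99, for pESCs). The summed gonadal somatic genes given above were also highest in PGCs, and their part in the Bcl2l1 differences was not tested.

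Bcl2 was nearly absent from stem cells (chromosome 1, 106538178 to 106714274, minus strand). Its level was 0.130 and 0.0827 TPM in ESCs, 0.0249 and 0.202 in pESCs, 0.597 and 0.590 in ESC-PGCLCs, 0.821 and 0.789 in pESC-PGCLCs and 1.13 and 1.29 in PGCs. In reads these were 2 to 16 in stem cells and 22 to 107 in germ cells, and no stem cell library reached a germ cell library. By mean TPM, ESC-PGCLCs had 5.57 times the level of ESCs and pESC-PGCLCs 7.11 times that of pESCs. On the log2(TPM + 1) scale the differences were 0.53 (adjusted p = 0.0109) and 0.70 (adjusted p = 0.00292), under 2-fold. With voom on recovered reads both were called (2.44, adjusted p = 0.00276, and 3.02, adjusted p = 0.000639), as with a pseudocount of 0.1. Under median centring the second was -0.03 (adjusted p = 0.866). PGCs were above ESC-PGCLCs by 0.47 (adjusted p = 0.0279), which was -0.13 under median centring. Of the exon bases of Bcl2, 6.09% are shared with D630008O14Rik.

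**Figure D3:**
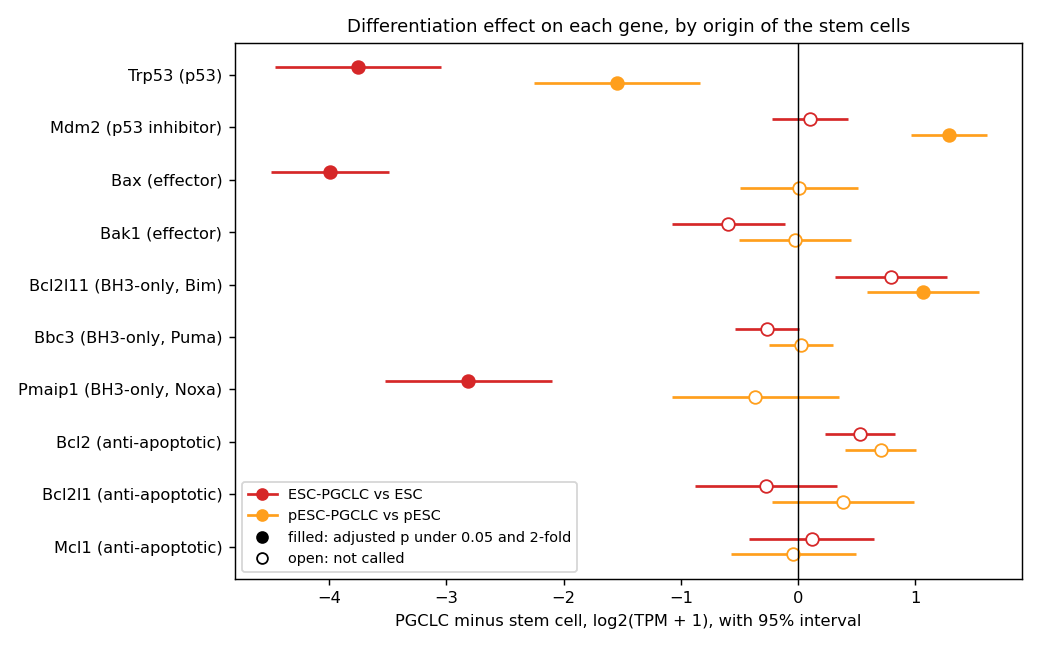
Difference of PGCLCs from their stem cells in log2(TPM + 1), with 95% intervals from limma, for the 10 genes from each origin (2 libraries a group), with called genes filled. The intervals of the 2 origins do not overlap for Trp53 (-3.75 and -1.55), Mdm2 (0.10 and 1.28), Bax (-3.99 and 0.01) and Pmaip1 (-2.81 and -0.37).

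Counted by comparison, ESC-PGCLCs against ESCs had 0 of 10 members called higher, where 15.3% of all genes tested were, and 3 lower (Trp53, Bax and Pmaip1), where 14.5% of all genes were. A pseudocount of 0.1 and voom each gave 2 higher and 4 lower, adding the low genes Bcl2, Bcl2l11 and Bak1. The shares of all genes above are of the fit on log2(TPM + 1), and those of these other settings are not given. pESC-PGCLCs against pESCs had 2 higher (Mdm2 and Bcl2l11; background 20.8%) and 1 lower (Trp53; 6.8%). Median centring turned this into 0 higher and 2 lower, as did quantile normalization, since Mdm2 and Bcl2l11 fell under 2-fold and Pmaip1 was added. All genes called there went from 5681 higher and 1854 lower to 2280 and 5010 under median centring. Under quantile normalization they were 3293 and 3033. The share of all called genes that were higher thus went from 75.4% to 31.3% and 52.1%. In the test of the difference between both effects, 4 members were called higher in the parthenogenetic cells (Trp53, Mdm2, Bax and Pmaip1; 15.5%) and 0 lower (3.53%), where 81.5% of all called genes were higher, against 29.8% under median centring and 57.6% under quantile normalization. Under both of these 3 members kept the call, without Mdm2. All genes called in this test went from 4236 higher and 961 lower to 1727 and 4062 under median centring. Under quantile normalization they were 2228 and 1643.

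pESCs against ESCs had 0 members called higher (background 0.165%) and 0 lower (0.616%) with limma. At an unadjusted p under 0.05, 1 member passed with 2-fold, Pmaip1 (-1.30, adjusted p = 0.0757), and voom called it (-1.29, adjusted p = 0.0186). Bax (-0.99, adjusted p = 0.0666), Trp53 (-0.94, adjusted p = 0.154) and Mdm2 (-0.62, adjusted p = 0.0703) were each lower in pESCs and were not called. Under median centring they were, in this order, -0.66 (adjusted p = 0.152), -0.60 (0.225) and -0.29 (0.163). With voom they were -0.88 (adjusted p = 0.0264), -0.83 (0.0699) and -0.53 (0.0897), all under 2-fold. The number of genes called over the table moved with 1 library, from 213 to 2, 18, 6 and 962 without ESC replicate 1, ESC replicate 2, pESC replicate 1 and pESC replicate 2, respectively. Of those 213, 21.1% were higher in pESCs, against 84.3% of the genes called under median centring and 53.3% under quantile normalization.

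pESC-PGCLCs against ESC-PGCLCs had 3 members higher (Bax, Trp53 and Pmaip1; 10.3%) and 0 lower (3.08%), and Bax alone under both other scalings. All genes called there went from 2812 higher and 839 lower to 1460 and 1891 under median centring. Under quantile normalization they were 1723 and 1330. The share of called genes that were higher thus went from 77% to 43.6% (median centring) and 56.4% (quantile normalization). PGCs against ESC-PGCLCs had 3 higher (Bax, Bcl2l1 and Trp53; 12%) and 0 lower (1.88%), and that share went from 86.4% to 26.2% and 48.6%. PGCs against pESC-PGCLCs had 1 higher (Bcl2l1; 2.07%) and 1 lower (Bax; 1.6%), and of the 4 fits that each left out 1 library, none kept both. Here the share went from 56.4% to 26.3% and 33.4%, and the number of called genes from 1000 to between 15 and 2015 on leaving out 1 library.

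**Figure D4:**
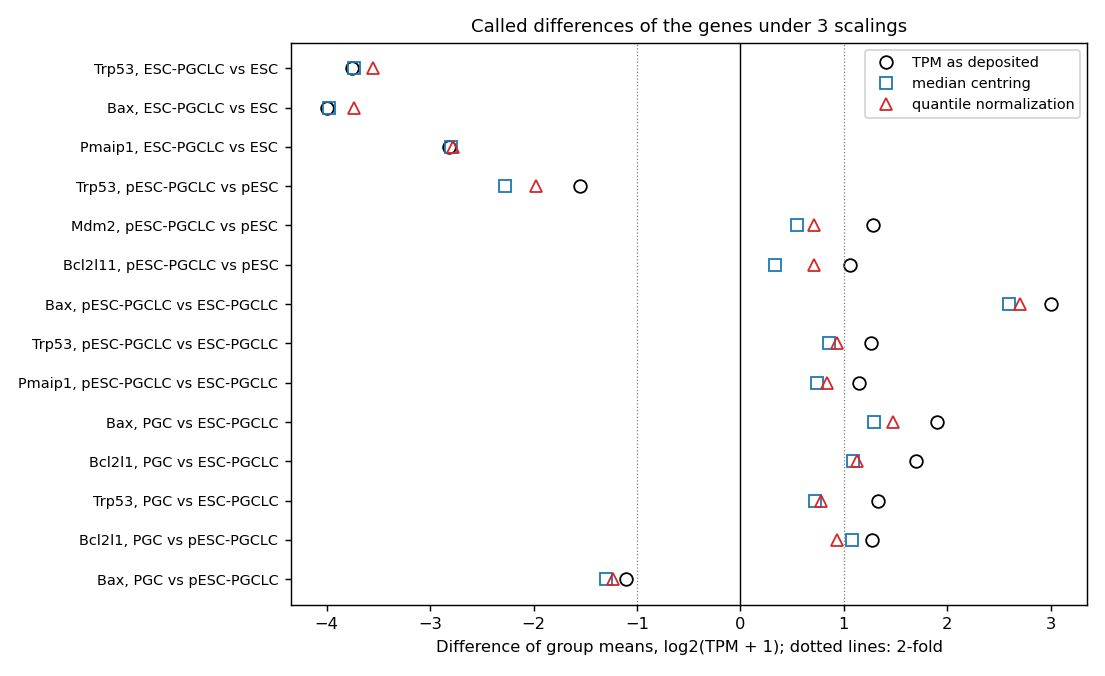
Difference of group means in log2(TPM + 1) for the 14 called differences of the members in the 6 comparisons of groups, on TPM as deposited, after median centring and after quantile normalization (2 libraries a group, dotted lines at 2-fold). The 3 values lie close together for ESC-PGCLCs against ESCs, and Mdm2 and Bcl2l11 in pESC-PGCLCs against pESCs move from 1.28 and 1.06 to 0.55 and 0.33 after median centring.

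Genes known as p53 targets were lower in ESC-PGCLCs more often than higher. Of 30 listed targets, all tested, 12 fell (14.5% of all genes did) and 2 rose (15.3%) against ESCs, with a median difference of -0.52 beside 0.05 for all genes. Cdkn1a, the cell cycle inhibitor that is the best known target, was at 212 and 170 TPM in ESCs, 151 and 136 in pESCs, 7.66 and 9.28 in ESC-PGCLCs, 24.2 and 28.3 in pESC-PGCLCs and 22.0 and 18.3 in PGCs. It fell by 4.34 in ESC-PGCLCs (SE 0.18, adjusted p = 2.66e-06) and by 2.41 in pESC-PGCLCs (adjusted p = 3.78e-05), and these effects differed by 1.93 (adjusted p = 0.00156). Like Bax and Trp53, it was lowest in ESC-PGCLCs without overlap. Sfn (stratifin), a cell cycle checkpoint gene, went from 39.0 and 33.6 TPM in ESCs to 0 and 0.152 in ESC-PGCLCs (-5.11, adjusted p = 1.11e-05), and from 13.3 and 14.9 in pESCs to 0.655 and 2.44 in pESC-PGCLCs (-2.66, adjusted p = 0.000325). Ccng1, a cyclin of the Mdm2 feedback loop, fell by 1.98 in ESC-PGCLCs (adjusted p = 0.000416) and by 1.25 in pESC-PGCLCs (adjusted p = 0.00492). The 2 targets that rose were Rps27l, a ribosomal protein paralog with a mean of 3602 TPM in ESCs and 8238 in ESC-PGCLCs (1.196, adjusted p = 0.000868, and 0.70, under 2-fold, after quantile normalization), and Xpc, a DNA repair gene named after its value was seen (1.07, adjusted p = 0.00101).

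In pESC-PGCLCs against pESCs, 5 targets fell (6.8% of all genes did) and 5 rose (20.8%), with a median of -0.23 beside 0.22 for all genes. Ephx1, an epoxide hydrolase, fell by 2.95 (adjusted p = 4.24e-05). Perp, a membrane protein gene, rose by 1.30 (adjusted p = 0.00845) and Sesn1, a stress-response gene, by 1.22 (adjusted p = 0.00172). The Perp call was lost under both other scalings, with the compared groups alone (adjusted p = 0.0972), without pESC replicate 1 (0.89) and without pESC-PGCLC replicate 2 (adjusted p = 0.0621). The upward calls rest on the scaling, since median centring left 15 lower and 0 higher and quantile normalization 10 lower and 0 higher. For ESC-PGCLCs the counts were 12 lower and 2 higher under median centring (3930 and 4231 of all genes). They were 13 lower and 0 higher under quantile normalization (4147 and 4202 of all genes). The effects from the 2 origins differed for 9 targets, 8 higher in the parthenogenetic cells (15.5% of all genes were) and 1 lower (3.53%). There were 3 higher and 2 lower under median centring (1727 and 4062 of all genes), and 4 higher and 2 lower under quantile normalization (2228 and 1643). Btg2, an antiproliferative gene, was at 3.22 and 2.33 TPM in ESC-PGCLCs, 15.4 and 15.5 in pESC-PGCLCs and 23.9 and 18.1 in PGCs, and was higher in the latter groups by 2.13 (adjusted p = 0.000312) and 2.54 (adjusted p = 0.000634). Against ESC-PGCLCs the counts of targets were near those of all genes, with 4 higher (10.3% of all genes were) and 1 lower (3.08%) in pESC-PGCLCs, and 3 higher (12%) and 1 lower (1.88%) in PGCs. Their median differences were 0.15 beside 0.12 for all genes and 0.40 beside 0.27. The counts became 2 and 1, and 1 and 1, under median centring, where all genes gave 1460 and 1891, and 712 and 2003. They became 2 and 1, and 1 and 0, under quantile normalization, where all genes gave 1723 and 1330, and 927 and 979. On TPM as deposited, Rps27l was the lower one in both comparisons (-1.35, adjusted p = 0.00145, and -1.12, adjusted p = 0.00397). Its call in PGCs was lost under quantile normalization (-0.91), with the compared groups alone (adjusted p = 0.18) and without PGC replicate 1 (-0.998), and that of Btg2 in PGCs with the compared groups alone (adjusted p = 0.0595). Neither pESCs against ESCs nor PGCs against pESC-PGCLCs had a target called.

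**Figure D5:**
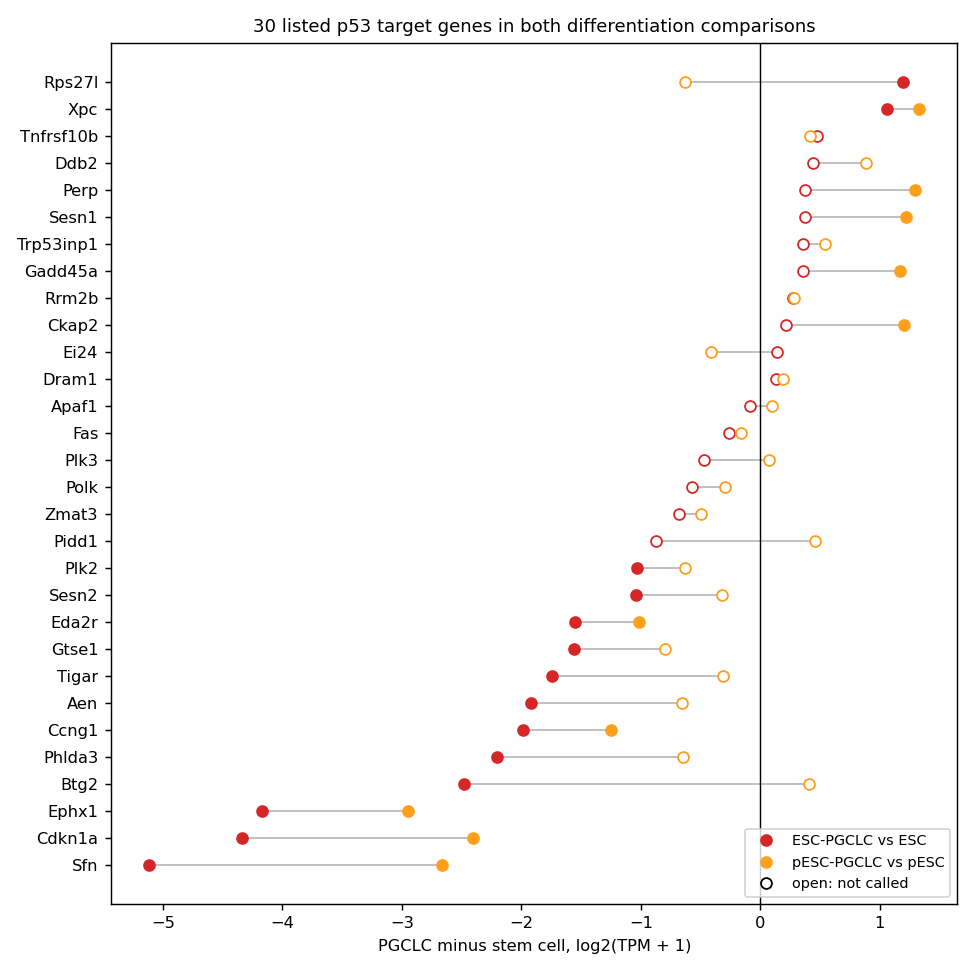
Difference of PGCLCs from their stem cells in log2(TPM + 1) for 30 listed p53 targets from both origins (2 libraries a group), with called genes filled and a grey line joining the 2 values of a gene. Sfn, Cdkn1a and Ephx1 lie farthest to the left in both, and the ESC-PGCLC value of Cdkn1a (-4.34) is below its pESC-PGCLC value (-2.41).

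Of 19 regulators of p53 tested, 7 rose (15.3% of all genes did) and 2 fell (14.5%) in ESC-PGCLCs, with a median difference of 0.36 beside 0.05 for all genes. In pESC-PGCLCs 8 rose (20.8%) and 0 fell (6.8%), with a median of 0.55 beside 0.22. These counts became 4 and 1 under quantile normalization (3293 and 3033 of all genes) and 3 and 3 under median centring (2280 and 5010). Atr, the kinase that signals stalled replication to p53, was at 1.19 to 1.84 TPM in stem cells, 13.9 to 15.9 in PGCLCs and 21.3 and 24.0 in PGCs. It rose by 2.70 in ESC-PGCLCs (adjusted p = 1.20e-05) and by 2.66 in pESC-PGCLCs (adjusted p = 2.01e-05). Ppm1d (Wip1), the phosphatase that switches p53 off, rose by 2.45 (adjusted p = 4.41e-05) and 2.57 (adjusted p = 5.35e-05). Usp10, a deubiquitinase of p53, fell in ESC-PGCLCs by 1.14 (adjusted p = 0.00224). Mdm4, the partner of Mdm2, was at 4.71 to 12.9 TPM and was called in no comparison. Cdkn2a, whose Arf product blocks Mdm2, did not exceed 0.680 TPM in any library. Between germ cell groups, Ep300 (1.16, adjusted p = 0.0295) and Crebbp (1.101, adjusted p = 0.0138), both p53 acetyltransferases, were higher in PGCs than in pESC-PGCLCs, and neither was called under the other scalings, with the compared groups alone or in 3 of the 4 fits without 1 library. No regulator was called in pESC-PGCLCs or PGCs against ESC-PGCLCs, and none of the 4 lists had a gene called in pESCs against ESCs, on TPM as deposited. Median centring and quantile normalization each called 2 regulators lower in pESC-PGCLCs than in ESC-PGCLCs (1891 and 1330 of all genes, respectively). Each also called 1 other Bcl2 family gene higher in pESCs than in ESCs (161 and 65 of all genes).

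Of 14 other Bcl2 family genes tested, 4 were lower (14.5% of all genes were) and 1 higher (15.3%) in ESC-PGCLCs than in ESCs, with a median of -0.05 beside 0.05 for all genes. Bid, a BH3-only link from death receptors, was at 52.3 and 48.1 TPM in ESCs, 18.8 and 29.2 in pESCs, 7.94 and 9.90 in ESC-PGCLCs, 28.4 and 35.8 in pESC-PGCLCs and 13.7 and 15.7 in PGCs. It fell by 2.37 in ESC-PGCLCs (adjusted p = 8.93e-05) and was higher in pESC-PGCLCs than there by 1.74 (adjusted p = 0.00144), and lower in PGCs than in pESC-PGCLCs by 1.07 (adjusted p = 0.0355), a call lost with the compared groups alone and in 3 of the 4 fits without 1 library. Bad, another BH3-only gene, fell by 1.86 (adjusted p = 0.000303) and was higher in pESC-PGCLCs than in ESC-PGCLCs by 1.16 (adjusted p = 0.00845), a call lost under both other scalings and without pESC-PGCLC replicate 1 or ESC-PGCLC replicate 2. Thus Bid and Bad shared with Bax a low in ESC-PGCLCs that did not overlap the pESC-PGCLC libraries. In pESC-PGCLCs against pESCs, 3 rose (20.8% of all genes did) and 2 fell (6.8%), with a median of 0.34 beside 0.22. The counts became 0 and 3 under median centring (2280 and 5010 of all genes) and 1 and 3 under quantile normalization (3293 and 3033). Against ESC-PGCLCs, 3 were higher in pESC-PGCLCs (background 10.3%) and 1 in PGCs (12%), the effector-like Bok (1.27, adjusted p = 0.0197). The 3 in pESC-PGCLCs became 1 under median centring (1460 of all genes) and 2 under quantile normalization (1723). The Bok call was lost under both other scalings, with the compared groups alone, and without PGC replicate 1 or ESC-PGCLC replicate 1. Of the exon bases of Bid, 17.7% overlap Bcl2l13.

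Among 16 caspase and apoptosome genes, 6 rose (15.3% of all genes did) and 3 fell (14.5%) in ESC-PGCLCs, with a median of 0.73 beside 0.05 for all genes. In pESC-PGCLCs 9 rose (20.8%) and 0 fell (6.8%), with a median of 1.32 beside 0.22. The counts were 6 and 2 under median centring (2280 and 5010 of all genes) and 7 and 2 under quantile normalization (3293 and 3033). Xiap, which blocks caspases, rose from 7.59 and 8.55 TPM in ESCs to 31.0 and 31.3 in ESC-PGCLCs (1.83, adjusted p = 0.000206). Casp6 was at 11.3 and 11.2 TPM in ESC-PGCLCs and 28.5 and 29.3 in pESC-PGCLCs (1.29, adjusted p = 0.00137, and under 2-fold in both other scalings), and it rose by 2.78 from pESCs to pESC-PGCLCs (adjusted p = 1.63e-05). Birc5 (survivin), also a mitotic gene, fell by 2.25 in ESC-PGCLCs (adjusted p = 1.40e-05). Endog, a mitochondrial nuclease, was lower in ESC-PGCLCs than in ESCs by 1.39 (adjusted p = 0.000497) and higher in pESC-PGCLCs than in ESC-PGCLCs by 1.86 (adjusted p = 0.000473), with 35.7% of its exon bases shared with Spout1. Against ESC-PGCLCs, 5 of the 16 were higher (10.3% of all genes were) and 0 lower (3.08%) in pESC-PGCLCs. This became 1 and 3 under median centring (1460 and 1891 of all genes) and 1 and 1 under quantile normalization (1723 and 1330). In PGCs 6 were higher (12%) and 1 lower (1.88%), which became 0 and 2 (712 and 2003 of all genes), and 1 and 2 (927 and 979). They included Endog (1.55, adjusted p = 0.00184) and the initiator caspase gene Casp8 (1.44, adjusted p = 0.00664) among the higher, and the lower one was Cycs, which encodes cytochrome c (-1.13, adjusted p = 0.0103) and shares 22.6% of its 100-base stretches with pseudogenes. All 3 calls were lost with the compared groups alone, those of Endog and Casp8 also under median centring, that of Casp8 under quantile normalization, and that of Cycs without PGC replicate 1 (-0.88) or ESC-PGCLC replicate 2 (adjusted p = 0.0583).

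For members whose group means spanned at least 2 log2 units, the genes most alike over the 10 libraries were found by the root mean square difference of centred log2(TPM + 1) among 8533 genes. Nearest to Trp53 were Dusp14 (0.17) and Junb (0.18). Dusp14 was at 58.5 and 50.6 TPM in ESCs, 36.6 and 29.8 in pESCs, 3.35 and 3.41 in ESC-PGCLCs, 11.5 and 10.7 in pESC-PGCLCs and 12.4 and 8.25 in PGCs. Nearest to Bax were Gm28374 (0.13), of which 44.0% of 100-base stretches also occur in Vps51 or Zfpl1, and Qtrt1 (0.17), a tRNA modification gene at 1.81 and 1.25 TPM in ESC-PGCLCs and 15.4 and 18.9 in pESC-PGCLCs. Nearest to Pmaip1 were Gm28901 (0.27), with 82.1% of its stretches in other genes, and Cfl1 (0.31), which encodes cofilin. The same libraries enter all these values, which are descriptions.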

How the data were processed

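RNA-seq of 10 libraries (5 groups of 2) was used. The authors deposited TPM for 36066 gene symbols. Their methods give HISAT2 alignment to mm10, counting on genes and DESeq2 for their comparisons, and the submitters' processing notes also name Bowtie2, RSEM and R 3.4.2. The labels name a NEBNext Ultra library kit and the methods Smart-seq2 on small cell samples, and which was used was not settled. The shared label text also mentions crotonic acid, which no sample title does. Multiplied by GENCODE M21 exon length, 94.6% to 94.9% of values above 0 were whole reads (within 0.02) for 35859 matched symbols. The 95% intervals are those of limma and rest on the spread between libraries. Floors of 3 reads cover counting error only. The values show depth, which sets the precision, from 6779837 to 18572901 reads, and 3 reads on a gene of median length were worth 0.116 to 0.338 TPM.

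The 27259 genes reaching 0.1 TPM in 2 or more libraries were fitted in limma 3.58.1 (R 4.3.3) as log2(TPM + 1), with a mean for each group over all 10 libraries, trended empirical Bayes variances, and Benjamini-Hochberg adjustment over all genes of a comparison. Calls needed an adjusted p under 0.05 and 2-fold. Fold changes on this scale understate the change of low genes. The 6 comparisons are those named, plus the difference of the 2 differentiation effects. The procedure was tested on simulated data. Also tried were 0.1 as the pseudocount, a filter of 1 TPM or no filter, the compared groups alone, quantile normalization, median centring, replicate as a block, voom on recovered reads, no minimum fold, an unadjusted p, and leaving out each library. Replicate numbers recur across groups without a stated link.

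Members and lists were chosen with earlier results of these data known. Named genes are the members, Cdkn1a, Ccng1, Mdm4 and Cdkn2a, in each list and comparison the 2 called genes that rose and the 2 that fell most whose mean in the higher group reached 5 TPM, and the 2 genes most like each wide-ranging member, and 1 gene that this rule names is not reported here. Promoter windows are from RefSeq. Strand use in counting is not given in the sources used here, so reads of overlapping genes cannot be told apart. Trp53rk and Amh, on the lists, had no row under these symbols. Tables and figures used numpy 2.4.6, pandas 2.3.3, matplotlib 3.10.9 and Python 3.11.15.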

Additional observations from a re-analysis of the deposited data

Results flagged for a closer look

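The step from stem cell to PGCLC differed between cells of parthenogenetic and of fertilized origin for 4 members, by limma's test of the difference itself. In log2(TPM + 1), as the step in pESCs minus the step in ESCs, the difference was 2.20 for Trp53, 1.18 for Mdm2, 4.00 for Bax and 2.45 for Pmaip1. All 4 are positive, as were 81.5% of all genes called in this test (29.8% under median centring and 57.6% under quantile normalization). Of all genes tested, 15.5% were called higher and 3.53% lower, or 4236 and 961 genes. These became 1727 and 4062 under median centring, and 2228 and 1643 under quantile normalization. Trp53, Bax and Pmaip1 kept the call in the 16 alternatives run, with ranges of 1.46 to 2.46, 3.26 to 4.19 and 1.70 to 2.93. Mdm2 lost it under median centring (0.44, adjusted p = 0.0537) and quantile normalization (0.44, adjusted p = 0.0787). Each origin has 2 libraries a stage and the number of lines behind them is not given, so origin and cell line cannot be told apart.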

How the results depend on the processing

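For the members, 755 of 866 values over 70 differences kept their direction and their side of the threshold, 39 lost a call, 15 gained one and 57 changed sign. Among other named genes 393 of 444 kept their call and 51 lost it. The sign changes touched no called difference. At an adjusted p under 0.05 were Bax and Bbc3 in pESC-PGCLCs against pESCs, Bbc3 in PGCs against ESC-PGCLCs and Bcl2 in the difference between both differentiation effects, all under median centring, which by construction shifts genes near 0 as well. In log2 differences, median centring gave for pESC-PGCLCs against pESCs Bcl2 -0.029, Bcl2l1 -0.35, Bbc3 -0.71 and Bax -0.72, for pESCs against ESCs Bcl2l1 0.10, Bcl2l11 0.19, Mcl1 0.25 and Bbc3 0.25, and for pESC-PGCLCs against ESC-PGCLCs Bbc3 -0.20, Bcl2 -0.23 and Bcl2l11 -0.28. For PGCs against ESC-PGCLCs it gave Bcl2 -0.13, Mcl1 -0.17, Bcl2l11 -0.25, Bak1 -0.32 and Bbc3 -0.44, for PGCs against pESC-PGCLCs Trp53 -0.13, and for the difference between both effects Bcl2l1 -0.085, Bak1 -0.18, Bbc3 -0.45, Bcl2l11 -0.48 and Bcl2 -0.57. Quantile normalization gave for pESC-PGCLCs against pESCs Bcl2l1 -0.11, Bbc3 -0.20 and Bax -0.32, for pESC-PGCLCs against ESC-PGCLCs Bcl2 -0.010 and Bcl2l11 -0.13, for PGCs against ESC-PGCLCs Bcl2l11 -0.12, for PGCs against pESC-PGCLCs Trp53 -0.16, for pESCs against ESCs Mcl1 0.21, and for the difference between both effects Bcl2 -0.039. Voom gave for pESC-PGCLCs against pESCs Bbc3 -0.18 and Bax -0.28, and for pESCs against ESCs Bcl2 -0.27 and Mcl1 0.040, and a pseudocount of 0.1 gave Bcl2 -0.080 there.

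The counts of members that follow stand beside the number of all genes called in the same setting where that number is given. Counts without it are not read as a result about the members. The number of members called in ESC-PGCLCs against ESCs went from 3 to 6 with a pseudocount of 0.1, with voom or without a minimum fold. In pESCs against ESCs it went from 0 to 1 with voom (513 genes called) or an unadjusted p. In pESC-PGCLCs against ESC-PGCLCs it went from 3 (3651 genes called) to 1 with median centring (3351) and with quantile normalization (3053). In PGCs against ESC-PGCLCs it went from 3 to 5 without a minimum fold and to 0 with the compared groups alone (0 genes called). In PGCs against pESC-PGCLCs it went from 2 to 1 with a pseudocount of 0.1 and to 0 with the compared groups alone (0 genes called). The number of genes called in pESCs against ESCs went from 213 to 402 with a filter of 1 TPM, 132 with no filter, 122 with quantile normalization, 513 with voom and 0 with the compared groups alone. In PGCs against ESC-PGCLCs it went from 3772 to 6140 (pseudocount of 0.1), 1906 (quantile normalization) and 0 (compared groups alone), and in PGCs against pESC-PGCLCs from 1000 to 2015 (voom) and 0 (compared groups alone). The cause of these shifts was not tested.

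Without 1 library, called genes ranged from 7464 to 8241 in ESC-PGCLCs against ESCs, 6734 to 8029 in pESC-PGCLCs against pESCs, 2 to 962 in pESCs against ESCs, 2930 to 3514 in pESC-PGCLCs against ESC-PGCLCs, 2873 to 4861 in PGCs against ESC-PGCLCs, 15 to 2015 in PGCs against pESC-PGCLCs and 3345 to 5598 for the difference between both effects. Called members ranged in the same order from 3 to 3, 2 to 3, 0 to 0, 1 to 2, 2 to 3, 0 to 1 and 4 to 4. Log2 differences that changed sign ranged, in ESC-PGCLCs against ESCs, from -0.57 to 0.020 for Bcl2l1. In pESC-PGCLCs against pESCs they ranged from -0.40 to 0.32 for Mcl1, -0.17 to 0.19 for Bax, -0.21 to 0.15 for Bak1, -0.0095 to 0.057 for Bbc3 and -0.80 to 0.064 for Pmaip1. In pESCs against ESCs they ranged from -0.11 to 0.12 for Bcl2, -0.45 to 0.28 for Mcl1, -0.11 to 0.25 for Bak1 and -0.30 to 0.015 for Bcl2l11. In PGCs they ranged from -0.28 to 0.19 for Pmaip1 against ESC-PGCLCs, and against pESC-PGCLCs from -0.34 to 0.47 for Trp53 and -0.13 to 0.036 for Bbc3. For the difference between both effects Mcl1 ranged from -0.52 to 0.21.

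Replicate number as a block changed no call of a member and took the genes called in pESCs against ESCs from 213 to 78. Deviations of libraries with the same number correlated at -0.05 to 0.24 across genes, with 2 pairs a comparison, so the numbers were not taken as pairing. Depth limits Bbc3, Bak1 and Bcl2 most, and the filter of 1 TPM removed Bbc3 and Bak1, which then had no value.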
